A study of Mus musculus with 8 samples.

Results

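The change of the testis transcriptome between day 16 (d16) and day 24 (d24) after birth was described gene by gene. The members were chosen by level alone. Of the 23983 genes in the expression table, 12566 had at least 2 FPKM (fragments per kilobase of transcript, scaled for library size, so that levels of different genes can be compared) at d16, at d24 or at both. Of these, 10920 reached 2 FPKM at d16, 11761 at d24 and 10115 at both stages. The RNA came from testis of wild-type mice of the inbred strain C57BL/6J, with no transgene, deletion or treatment in any group. There was 1 RNA library each for d12, d16, d24 and adult testis, and the number of animals behind a library is not given in the sources used here. The comparison therefore sets 1 library against another, without a spread between animals and without a test, and p-values cannot be given. Where 4 values of a gene are listed, they stand in the order of age, with d12 first and the adult last, so that the step itself lies between the second and the third value.

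In the mouse the first wave of spermatogenesis starts soon after birth and runs nearly in step in all tubules, so that testes of successive ages hold successively later germ cells. Spermatocytes copy their DNA, pair and recombine homologous chromosomes during a long prophase, and then divide meiotically into haploid round spermatids. Round spermatids build an acrosome (the enzyme-filled cap that opens at fertilization) and a flagellum. Later, as elongating spermatids, they replace histones first by transition proteins and then by protamines. Spermatids store many mRNAs before they translate them, so that an mRNA level does not show when its protein is made. Sertoli cells, Leydig cells, peritubular myoid cells and blood vessels make up the rest of the tissue.

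The markers of the haploid stage separated the d16 and d24 libraries. The 6 genes listed for round spermatids summed to 5.92, 20.98, 599.1 and 1265 FPKM in the 4 libraries. The 6 genes listed for elongating spermatids, which include protamines and transition proteins, summed to 13.5, 4.76, 2389.9 and 26956 FPKM. At d24 the first list had 47.3% of its adult sum and the second 8.87%. The mRNAs listed for elongating spermatids were thus well above the d16 level at d24, although far below the adult level. In whole tissue, more cells of a type cannot be told apart from more RNA per cell, and the same holds for falls.

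The 4 libraries differed in depth and in scale. Their FPKM values summed to between 283580 at d12 and 659202 in adult testis, with 307964 at d16 and 472726 at d24. The d16 library held 10041736 fragments on genes and the d24 library 25360436, as recovered from the deposited values. For a transcript of 1 kb, 3 fragments, the limit that a count of 0 allows, correspond to 0.240 FPKM at d16 and 0.137 at d24. Intervals in parentheses are exact 95% intervals from these fragments and cover counting error only.

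A gene is said here to have risen or fallen where log2((d24 FPKM + 1)/(d16 FPKM + 1)) was at least 1 or at most -1, that is, past 2-fold on this scale, which understates the change of low genes. By this limit 3346 genes (26.6% of the 12566 members) rose, 559 (4.45%) fell and 8661 (68.9%) lay between. The median change was 0.15 on the log2 scale, with quartiles at -0.43 and 1.07. The rises also reached farther than the falls. Rises of at least 4-fold numbered 1598, of at least 8-fold 817, of at least 32-fold 180 and of at least 128-fold 22. Falls of at least 4-fold numbered 10, and falls of at least 8-fold 2. The members nearest to the limit of 2 FPKM were Rundc3a (2.0007 FPKM at d24), Lox (2.0012 at d16) and Gm8096 (2.0016 at d24). Just outside lay 4930429F11Rik, Zfp882 and 4933402D24Rik, with 1.9998, 1.9975 and 1.9959 FPKM at d24.

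The balance of rises and falls depended on how the 2 libraries were scaled. Of all genes past the limit, 85.7% were rises with the FPKM values as deposited. With both libraries brought to the same FPKM sum, a setting chosen after the data were seen, the d24 to d16 ratio of each gene fell by 0.62 on the log2 scale. The median change became -0.45, 2253 genes rose and 2979 fell, so that 43.1% of the calls were rises. With the same upper quartile the share was 66.4%, and with changes centred on the median of the members it was 74.1%. Counts for gene lists are therefore given below on both scales where falls differ between them. The counts at equal FPKM sums are to be read against 12789 members on that scale, of which 17.6% rose and 23.3% fell.

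**Figure D1:**
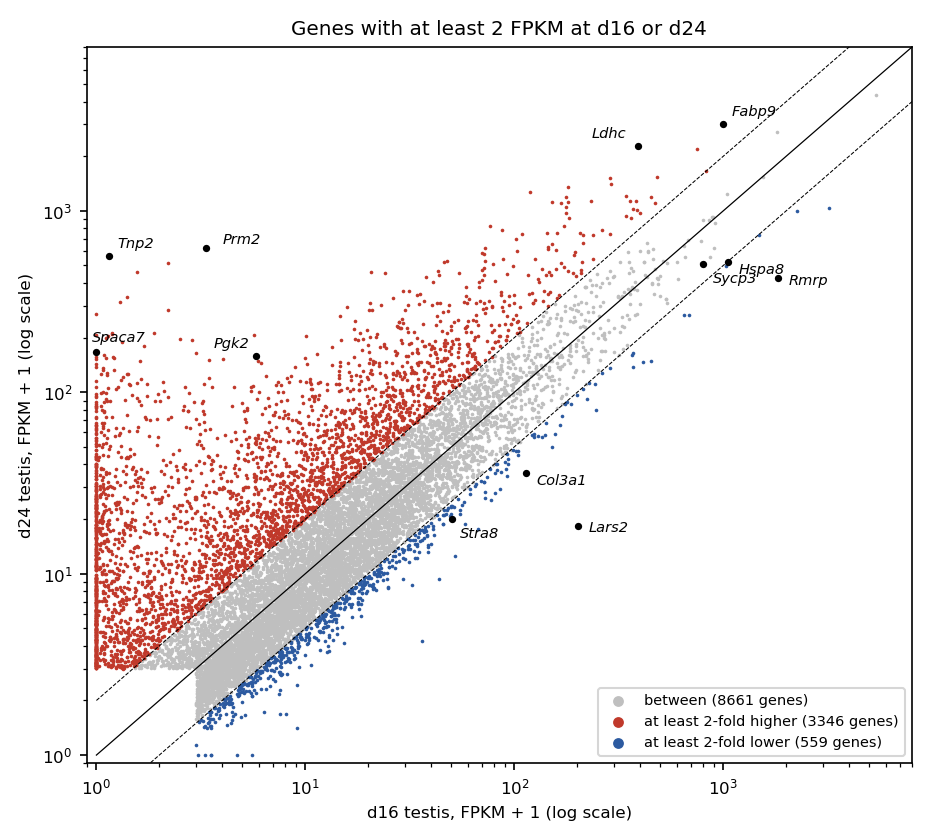
FPKM + 1 at d24 against FPKM + 1 at d16, both on log scales, for the 12566 genes with at least 2 FPKM in either library. The solid line marks equal values and the dashed lines a 2-fold difference. The 3346 red genes above the band reach to the left edge, where genes listed at 0 at d16 lie, whereas the 559 blue genes stay close under the band.

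Most genes that crossed the limit of 2 FPKM from d16 to d24 were higher still in the adult. There were 1646 genes under 2 FPKM at d16 and at or above it at d24, including 136 with at least 2 FPKM at d12. The medians of the 1646 genes were 0.192, 0.397, 6.02 and 13.8 FPKM in the 4 libraries. Of the 1646, 1386 lay higher in the adult than at d24, or 1135 with d24 and adult brought to the same FPKM sum. A stricter group of 199 genes went from under 0.2 FPKM at d16 to at least 20 FPKM at d24. A further view is given by 43 genes with under 1 FPKM at d16 and at least 100 at d24, whose median rose from 0.193 to 142.1 FPKM. Genes at 100 FPKM or more numbered 470 at d16 and 973 at d24. In the other direction, 805 genes dropped under 2 FPKM at d24, from a median of 2.78 to 1.45 FPKM.

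Most risen genes were at or above their d24 level in the adult library as deposited, whose FPKM sum was also the larger. The median levels of the 3346 risen genes were 1.096, 3.60, 25.1 and 41.6 FPKM, and 2664 of them (79.6%) were at or above their d24 level in the adult, against 47.4% of all members. With the adult library brought to the FPKM sum of d24, a setting chosen after the data were seen, the shares were 49.7% and 20.3%. For the 817 genes with a rise of at least 8-fold, the medians were 0.149, 0.279, 34.3 and 96.7 FPKM, and 797 (97.6%) were at or above the d24 level in the adult, or 694 (84.9%) with equal sums. The 559 fallen genes had medians of 16.1, 11.999, 4.61 and 3.91 FPKM, and 552 of them were higher at d12 than at d24. The risen genes held 16.7% of all FPKM at d16 and 48.0% at d24, and the fallen genes 9.06% and 2.35%. Of all FPKM gained from d16 to d24, 50% lay in 406 genes.

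Genes of the condensing sperm nucleus were among the largest rises. Tnp2, which encodes transition protein 2, had 1.74, 0.145 (1 fragment), 562.5 (6797 fragments) and 3997 FPKM. Its rise of 8.94 on the log2 scale was the largest of all members. Tnp1, which encodes transition protein 1, had 2.81, 0.563, 460.5 and 4147 FPKM. Prm1, which encodes protamine 1, had 3.39, 1.1999 (6 fragments, 0.440 to 2.61), 517.4 (502.5 to 532.7) and 6208 FPKM. Prm2, which encodes protamine 2, had 4.57, 2.35, 624.3 and 10910.3 FPKM. All 4 genes were lower at d16 than at d12, and between d24 and the adult each was again several times higher. Tnp2 (10787935 to 10788655), Prm2 (10791377 to 10792105) and Prm1 (10796332 to 10796823) lie in this order on the minus strand of chromosome 16 in GRCm38. Prm3 (10790508 to 10790914), which is named after the protamines, lies between Tnp2 and Prm2 and went from 0.197 FPKM (1 fragment) to 154.4.

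Other large rises came from genes with few or no fragments at d16. Spaca7, which encodes an acrosomal protein, had no fragment at d12 or d16, then 165.7 FPKM at d24 and 466.4 in the adult, and was at least 534-fold higher at d24 than the value of 3 fragments at d16. By the same reckoning Dnajc5b, a member of the DnaJ chaperone family, was at least 598-fold higher, with 151.8 FPKM at d24, and Cypt12 at least 434-fold, with 204.9 FPKM at d24. Hmgb4, a high mobility group protein of the testis, had 1 fragment at d16 (0.117 FPKM) and 2972 at d24 (197.8 FPKM), a ratio of 1691 (303 to 66812). Tex33 had 0.298 FPKM at d16 and 311.9 at d24, and Spata45, listed at 0 at d16, had 269.5 FPKM at d24. The gene 1700019M22Rik, annotated as a pseudogene without a protein, stood among them with 0.663, 0.399, 334.04 and 1888 FPKM. Gm10377 and the Y-linked Gm20736, at 207.9 and 211.4 FPKM at d24, have near-identical copies among which fragments may be split.

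The largest gains in FPKM came from genes already active at d16. Fabp9, a lipid-binding protein of male germ cells, had 39.7, 994.6, 2997 and 6342 FPKM. Ldhc, the lactate dehydrogenase subunit of male germ cells, had 5.24, 389.2, 2267 and 2769 FPKM, and Rsph1, a radial spoke protein of the axoneme, 53.9, 746.99, 2189 and 2137. Hrasls5 went from 118.1 to 1271 FPKM, Crisp2, a cysteine-rich secretory protein of sperm, from 150.0 to 1122, and Cetn1, a centrin of centrioles and cilia, from 180.1 to 1121. Hsp90aa1, a heat shock protein and chaperone, went from 1813 to 2705 FPKM and stayed between the limits, with a change of 0.58. The 15 largest gains made up 8.21% of all FPKM gained.

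Upstream sequences of 6 genes are shown to let the promoters of risen genes be compared with each other and with that of a gene that did not rise. They are RefSeq sequences of GRCm38.p6, each of the 120 bases before the annotated start, read 5′ to 3′ on the strand of the gene. Prm2 lies on the minus strand and its bases are chr16:10792106-10792225. The capitals TTTATA are the TATA box letters TATAAA as read on the strand opposite to the gene. Izumo1 (plus strand, chr7:45621691-45621810) holds a cAMP response element, the site that CREB and CREM proteins bind. Actl7b (minus strand, chr4:56741426-56741545) and Tex33 (minus strand, chr15:78395913-78396032) hold the short core of the RFX motif. In Tex33 this core is read on the strand opposite to the gene. Pgk2 (minus strand, chr17:40208610-40208729), an intronless testis gene, and its widely expressed X-linked relative Pgk1 (plus strand, chrX:106186980-106187099) have none of these letters and are shown for their base composition.
Prm2: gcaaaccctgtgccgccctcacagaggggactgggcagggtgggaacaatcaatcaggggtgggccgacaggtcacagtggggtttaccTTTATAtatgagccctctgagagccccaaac
Izumo1: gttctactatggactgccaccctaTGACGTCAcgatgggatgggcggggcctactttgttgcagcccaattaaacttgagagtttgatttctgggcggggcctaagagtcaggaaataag
Actl7b: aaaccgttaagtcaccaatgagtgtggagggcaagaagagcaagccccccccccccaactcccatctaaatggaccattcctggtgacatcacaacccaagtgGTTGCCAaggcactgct
Tex33: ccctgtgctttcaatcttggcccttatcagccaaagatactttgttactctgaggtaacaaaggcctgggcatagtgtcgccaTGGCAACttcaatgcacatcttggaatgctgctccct
Pgk2: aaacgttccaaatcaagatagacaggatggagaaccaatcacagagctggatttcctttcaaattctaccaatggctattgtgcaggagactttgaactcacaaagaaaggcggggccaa
Pgk1: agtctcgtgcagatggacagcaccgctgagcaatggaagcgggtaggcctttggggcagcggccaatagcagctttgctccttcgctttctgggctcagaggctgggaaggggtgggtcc

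The capitals in Prm2 run from base -31 to -26, those in Izumo1 from -96 to -89, those in Actl7b from -17 to -11 and those in Tex33 from -37 to -31, counted back from the start site. The levels of these genes at d16 and d24 were 2.35 and 624.3 FPKM for Prm2, 0.107 and 35.1 for Izumo1, 19.5 and 459.7 for Actl7b, and 0.298 and 311.9 for Tex33. Pgk2 went from 4.77 to 157.2 FPKM while Pgk1 had 14.2 and 9.80. The 300 bases around the start hold 4 CpG dinucleotides at Pgk2 and 24 at Pgk1, and 43.0% and 66.7% of their bases are G or C.

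Over all promoters of the table, those of the steeply risen genes were poorer in CpG than those of the other members. Promoters of 300 bases, 250 before and 50 after the start, were found for 10069 of the 12566 members. The median number of CpG was 4 for the genes that rose at least 8-fold (642 promoters), 14 for all risen genes (2675), 21 for the genes between (6968) and 16 for the fallen (426), against 20 over all members. A GC box, GGGCGG on either strand, stood in 21.2% of the first group, 44.8% of all risen, 66.7% of those between and 59.9% of the fallen, and in 35.9% of all 27025 promoters of the genome. The core of the RFX motif, GTTGCCA on either strand, was more frequent in the risen groups, at 13.7%, 8.75%, 3.47% and 2.82%, against 4.46% of all promoters. For the genes that rose at least 32-fold it was found in 9.79% of 143 promoters. The core of the MYB site, TAACNG on either strand, was found in 31.6%, 26.2%, 18.7% and 19.01%, and in 23.2% of all promoters. The full cAMP response element, TGACGTCA, was found in 1.87%, 3.18%, 3.56% and 3.52% of the same groups in that order, and in 1.88% of all promoters. The TATA box TATAAA was found in 11.1%, 8.71%, 6.44% and 12.7%, and in 14.2% of all promoters. These are matches of letters, with overlaps between motifs allowed, and base composition differs between the same groups, from a median of 51.0% G or C in the first to 61.3% among the genes between.

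Genes of the chromosome axis changed little or in both directions. The synaptonemal complex, which holds paired chromosomes together, and the meiotic axis had 14 members, of which 4 rose, none fell and 10 lay between, with a median change of -0.03. Sycp3, a protein of the lateral element, had 413.8, 795.3, 505.3 and 507.4 FPKM. Sycp1, the transverse filament, had 288.2, 535.95, 308.6 and 295.8 FPKM. Both peaked at d16 in this series of libraries. Syce1, a protein of the central element, rose from 211.0 to 666.0 FPKM, Stag3, a meiotic cohesin subunit, from 84.8 to 178.5, and Rec8, the meiotic kleisin, from 7.63 to 23.5. With equal FPKM sums 2 of the 14 rose and 5 fell, so that no direction can be given for the list as a whole.

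Most genes for breaking and repairing DNA in meiosis lay between the limits. Of 18 members 1 rose, 2 fell and 15 lay between, with a median of -0.40, and at equal FPKM sums none rose and 9 fell. Psmc3ip, the partner of Mnd1 in strand exchange, rose from 114.3 to 239.9 FPKM. Mnd1 itself fell from 17.4 to 8.12 FPKM, and Tex11, an X-linked gene for a protein of recombination sites, fell from 54.1 to 20.3. Dmc1, the meiotic strand-exchange recombinase, had 33.3 FPKM at d16 and 17.5 at d24, a change of -0.89.

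Most markers listed for pachytene, the long middle stage of prophase, rose. Of 10 markers 9 rose, against 26.6% of all members. The other, Mybl1, the transcription factor A-MYB, lay between with 37.6 and 54.2 FPKM. Several of the 10, such as Ldhc, Clgn, Meig1 and Acr, also stand in lists of sperm genes below, so that the list does not mark pachytene alone. Hspa2, the heat shock protein of spermatocytes, had 39.9, 339.9, 941.3 and 981.2 FPKM, and Ybx2, an RNA-binding protein of stored mRNAs, had 11.1, 143.2, 614.8 and 763.7. In sum the 10 genes stood at 19.7% of their adult FPKM at d16 and at 82.3% at d24. With equal FPKM sums 6 of the 10 rose, against 17.6% of all members on that scale.

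Most regulators of the meiotic divisions were at the adult level or above it at d24. Of 22 members 9 rose, 1 fell and 12 lay between, with a median change of 0.81, and 19 were at or above their adult level at d24. Over all members, 5959 of 12566 (47.4%) were at or above their d24 level in the adult as deposited. With the adult brought to the FPKM sum of d24, 2552 (20.3%) were, so a lower adult level was common among members. Ccna1, the cyclin of male meiosis, had 0.204, 2.09 (41 fragments), 52.7 (1825 fragments) and 50.9 FPKM. Aurka, a kinase of the spindle poles, rose from 32.1 to 128.9 FPKM, Ccnb2 from 22.1 to 77.8 and Plk1, a kinase of mitotic and meiotic entry, from 5.16 to 28.1. Cdk1, the kinase that cyclins A and B drive, had 14.8 FPKM at both stages, and Cdc20, an activator of the anaphase-promoting complex, went from 29.0 to 58.3 FPKM with a change of 0.98, just under the limit. Ccnb3, an X-linked cyclin, fell from 11.03 to 4.89 FPKM. On the scale of equal FPKM sums 5 genes of this list rose and 2 fell.

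**Figure D2:**
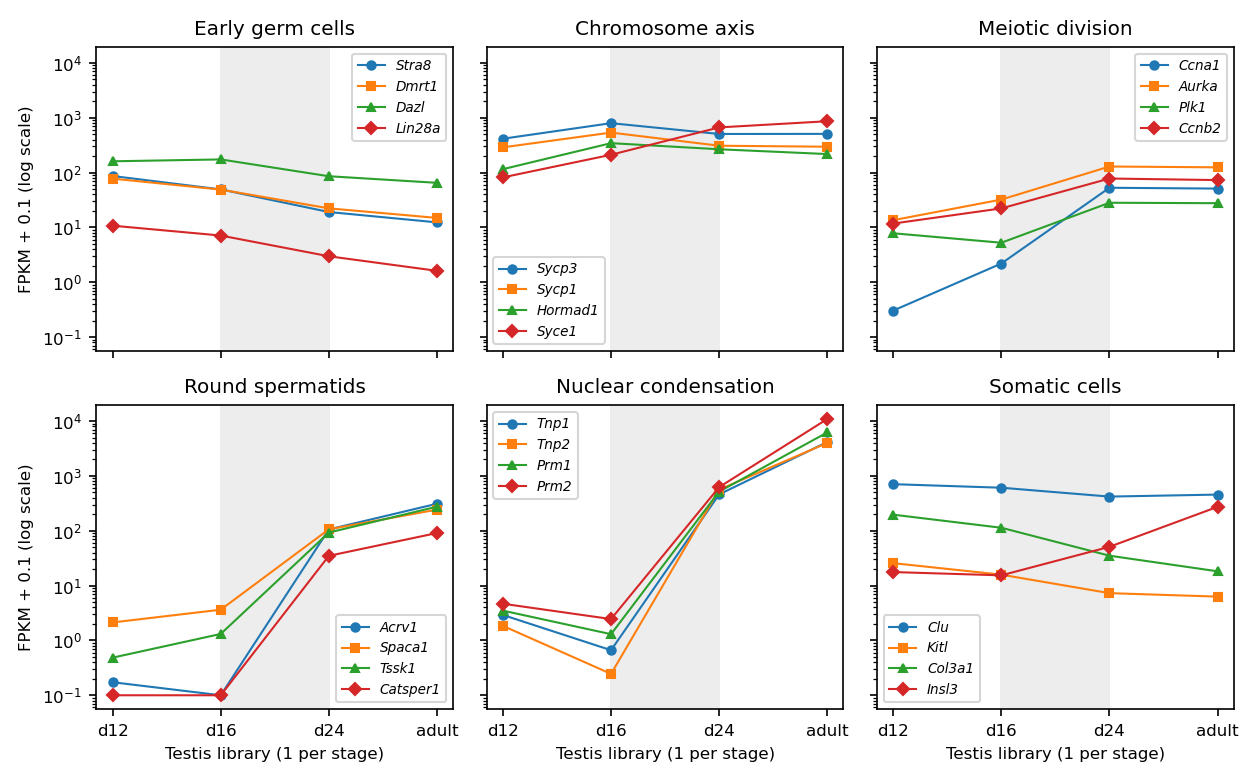
FPKM + 0.1 on a log scale in the 4 testis libraries, 1 per stage, for 24 genes in 6 groups, with the step from d16 to d24 shaded. From d16 to d24, Stra8 and the other early germ cell genes decline. Of the axis genes, Syce1 rises, and Sycp3, Sycp1 and Hormad1 stay between the 2-fold limits. The division genes reach a plateau at d24, and the haploid genes rise at d24 and again to the adult.

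Most regulators of spermatid transcription rose. Of 17 members 12 rose, 1 fell and 4 lay between, with a median change of 1.599. Crem, whose product binds cAMP response elements in spermatids, had 5.61, 20.5, 84.05 and 130.4 FPKM. Rfx2, a factor for genes of cilia and spermatids, had 1.02, 12.8, 72.2 and 82.5 FPKM. Brdt, the bromodomain protein of the testis, rose from 95.2 to 236.2 FPKM, and Tbpl1, a relative of the TATA-binding protein, from 42.4 to 110.8. Taf7l, an X-linked gene for a subunit of the general factor TFIID, fell from 176.9 to 87.3 FPKM. When both FPKM sums were made equal, 8 of the 17 rose and 2 fell.

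Of the proteins that pack the sperm nucleus, 9 of 11 rose and 2 lay between, with a median change of 6.83. Those between were testis histones. Hist1h2ba, the testis form of H2B, had 779.8 FPKM at d16 and 514.6 at d24, and Hist1h1t, the linker histone of spermatocytes, had 398.3 and 598.6. H1fnt, a linker histone of spermatids, had 0.121 FPKM at d16 (2 fragments) and 126.3 at d24, a ratio whose interval ran from 289 to 8643. As a sum the 11 genes reached 12.9% of the adult level at d24, the lowest share among the lists of sperm parts. Equal FPKM sums left 9 rises and gave 1 fall.

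Genes for sperm structure and function rose almost without exception. In 8 lists, from the acrosome to the enzymes of sperm glycolysis, 135 of 141 genes (95.7%) rose and none fell, with a median change of 3.29, against 26.6% of all members and a median of 0.15. Of the 141, 55 were under 2 FPKM at d16, so that they became members only through d24 and could not fall. All 55 rose. Of the other 86, 80 (93.0%) rose, against 18.0% of the 10920 members with at least 2 FPKM at d16. The acrosome and the perinuclear theca, a shell around the sperm nucleus, had 25 members, of which 24 rose. Actl7b, an actin-like protein, had 0.899, 19.5, 459.7 and 1017 FPKM. Zpbp2, a protein that binds the zona pellucida, had 0.684, 19.9, 283.5 and 339.1 FPKM, and Acrbp, which binds proacrosin, rose from 16.1 to 221.3. Acrv1, an acrosomal antigen, was without a fragment at d16 and had 105.7 FPKM at d24, at least 485-fold more than the value of 3 fragments. Gopc, a Golgi protein needed for acrosome formation and used in many cell types, lay between, with 15.6 and 22.5 FPKM.

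Genes for binding to and fusing with the egg rose in 20 of 22 cases, with a median change of 3.40. Adam5 and Adam32, of a family of membrane proteins on sperm, rose from 107.5 to 745.1 and from 71.2 to 625.1 FPKM, and their chaperone gene Clgn from 157.7 to 610.6. Izumo1, the sperm partner of the egg receptor Juno, had 0.642, 0.107 (2 fragments), 35.1 and 82.5 FPKM. Tex101 and Ly6k, which encode membrane-anchored proteins that sperm need to keep Adam3, lay between. Tex101 had 95.3 FPKM at d16 and 82.2 at d24, and Ly6k 59.1 and 59.4.

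All 29 members for the axoneme, the microtubule core of the flagellum, rose, with a median change of 2.27. Dnah8, a dynein heavy chain of the sperm tail, rose from 88.4 to 317.4 FPKM, Ccdc39, a protein that sets the spacing of dynein arms, from 99.04 to 308.4, and Tekt1, a tektin of the microtubule doublets, from 47.5 to 301.7. As a sum the axoneme genes had 22.8% of their adult FPKM at d16 and 89.9% at d24. The fibrous sheath and outer dense fibres, which surround the axoneme in mammalian sperm, stood further from the adult level. All 17 members rose, with a median of 4.80, from 4.80% of the adult sum at d16 to 37.6% at d24. Odf2, a main protein of the dense fibres, rose from 179.1 to 1347 FPKM, Spa17 from 287.3 to 1512 and Odf1 from 0.0724 (1 fragment) to 99.6. Akap4, an X-linked gene for the main anchor of protein kinase A in the fibrous sheath, had 0.280, 0.112 (4 fragments), 98.6 and 564.6 FPKM.

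In the smaller groups of sperm genes nearly all members rose as well. Of 15 genes for the manchette, the microtubule skirt that shapes the sperm head, 14 rose, among them Meig1 from 150.4 to 658.2 FPKM and Hook1, a protein of the manchette, from 40.5 to 104.3. Of 15 genes for ion channels and transport, 14 rose. Catsper1, the pore of the sperm calcium channel, had no fragment at d12 or d16, then 34.8 FPKM at d24 and 90.8 in the adult, whereas Catsper2, another pore subunit, already had 10.5 FPKM at d16 and reached 91.3. Atp1a4, the sodium pump of sperm, rose from 0.0918 FPKM (4 fragments) to 57.0. Of 10 testis kinases and phosphatases 9 rose, such as Tssk2, a serine kinase of spermatids, from 0.403 to 124.4 FPKM and Ppp3r2, the calcineurin subunit of sperm, from 19.4 to 199.7. All 9 genes for sperm glycolysis rose, with Pgam2, a phosphoglycerate mutase, going from 75.6 to 821.3 FPKM and Hk1, a hexokinase with a sperm isoform, from 7.32 to 112.5. At equal FPKM sums all 9 of the glycolysis list, all 17 of the sheath list, 26 of 29 of the axoneme list, 23 of 25 of the acrosome list and 11 of 15 of the manchette list still rose.

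**Figure D3:**
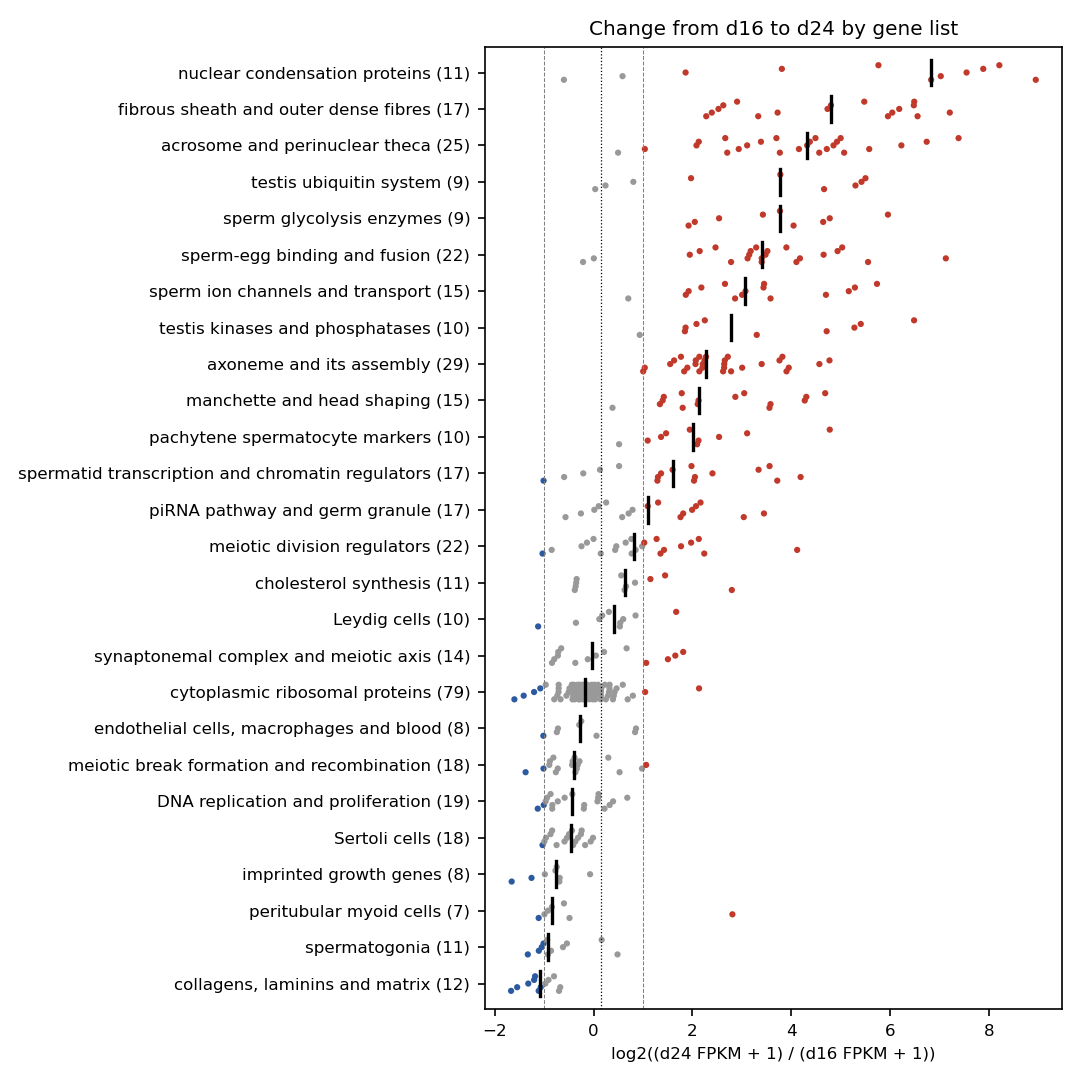
Change from d16 to d24 as log2((d24 FPKM + 1)/(d16 FPKM + 1)) for the members of 26 gene lists, with the number of members in parentheses. Each point is a gene (red, risen; blue, fallen; grey, between), the short bar is the list's median, the dashed lines mark the 2-fold limits and the dotted line the median of 0.15 over all members. Lists of sperm parts lie at the top, from 2.12 for the manchette upward to 6.83, and matrix and spermatogonial genes at the bottom.

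RNA regulation and protein turnover moved in part. The piRNA pathway, small RNAs that guard the germ line against transposons, and the germ granule had 17 members, of which 9 rose and 8 lay between. Tdrd6, a tudor protein of the chromatoid body of spermatids, rose from 28.4 to 240.4 FPKM, and Piwil1, the Piwi protein of pachytene cells, from 90.0 to 193.5. Mov10l1, the helicase that starts piRNA processing, had 106.9 FPKM at d16 and 71.8 at d24. On the scale of equal sums 7 of the 17 rose and 1 fell. Of 9 genes of the ubiquitin system 6 rose. Klhl10, the adaptor of a spermatid ubiquitin ligase, rose from 0.278 to 56.8 FPKM, while its widely used scaffold Cul3 went from 194.2 to 340.1, with a change of 0.81. Of the Smok kinases 2 were members. Smok3a had 0.0588 FPKM at d16 and 2.99 at d24, and Smok4a 2.80 and 3.34.

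In most pairs of a testis gene and a widely expressed relative, the ratio of the first to the second was higher at d24. Of 24 pairs, the testis gene rose in 20, and the relative rose in 2 and fell in 6. The ratio of testis gene to relative within a library, which does not depend on scaling between libraries, was higher at d24 than at d16 in 23 of the 24 pairs. The testis gene stood above its relative in 2 of the 24 pairs in the d12 library, in 9 at d16, in 17 at d24 and in 19 in the adult. For phosphoglycerate kinase the ratio of Pgk2 to Pgk1 went from 0.337 to 16.04. For glyceraldehyde-3-phosphate dehydrogenase, Gapdhs had no fragment at d16 and 61.0 FPKM at d24, while Gapdh fell from 42.6 to 19.1. Papolb, a poly(A) polymerase of spermatids, went from 0.454 to 5.24 times the level of Papola, and Oaz3, the antizyme of spermatids, from 0.0128 to 4.88 times that of Oaz1. Hspa1l rose from 0.563 to 60.1 FPKM and still stood at 0.115 of the level of Hspa8, which fell from 1050 to 523.4 (ratio 0.490 to 0.507). Ldhc over Ldha hardly moved, from 4.86 to 5.51, as Ldha also rose, from 80.1 to 411.2 FPKM. Taf7l over Taf7 was the pair whose ratio dropped, from 3.93 to 3.00.

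**Figure D4:**
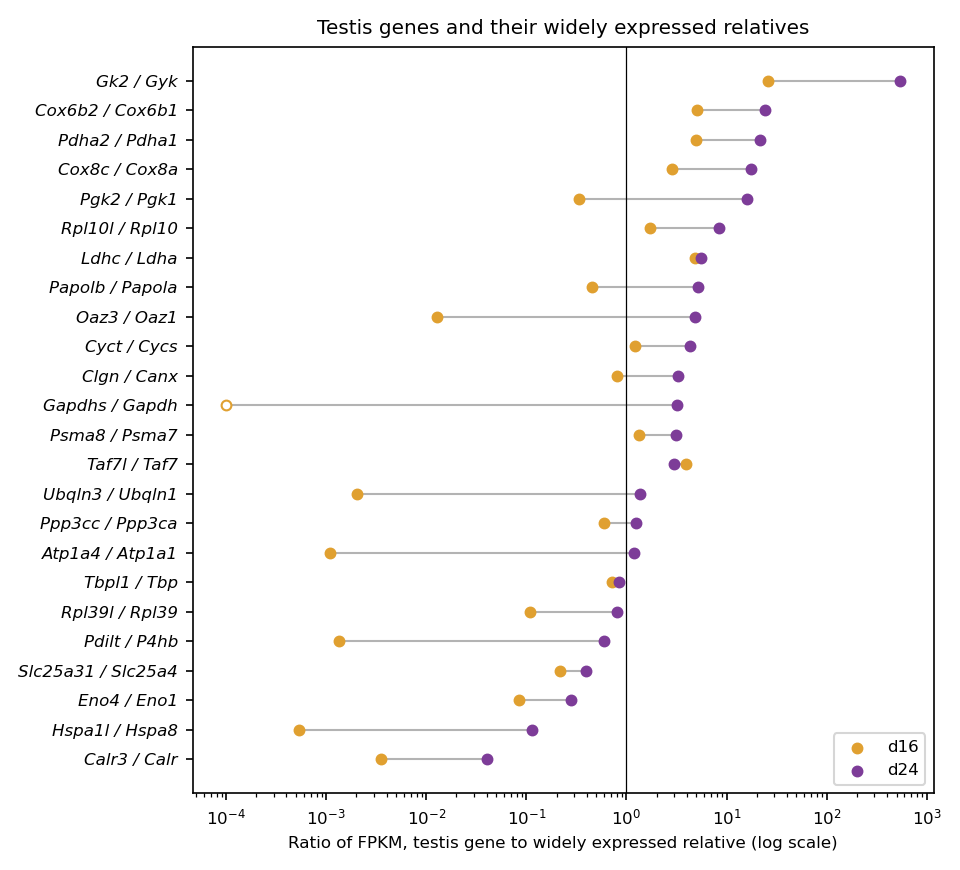
Ratio of the FPKM of a testis gene to that of its widely expressed relative, on a log scale, at d16 (yellow) and d24 (purple) for 24 pairs. The open circle is Gapdhs, which had no fragment at d16 and is drawn at the left edge. The purple point lies to the right of the yellow one in every pair except Taf7l and Taf7, and 17 purple points lie right of 1.

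Genes of early germ cells were lower at d24 or between the limits. Of 11 spermatogonial genes none rose and 4 fell, with a median change of -0.92, and with equal FPKM sums 9 of 12 fell. Stra8, which is induced by retinoic acid at the entry into meiosis, had 86.4, 49.2, 18.99 and 12.3 FPKM. Dmrt1, a regulator of spermatogonia, had 77.4, 48.9, 22.2 and 14.8 FPKM, and Dazl, an RNA-binding protein of germ cells, 160.4, 173.5, 85.7 and 64.9. Id4, used as a marker of spermatogonial stem cells, ran the other way, with 4.91, 24.2, 34.3 and 31.95 FPKM. Of 19 genes for DNA replication 2 fell, Mcm2 from 18.7 to 7.99 and Mcm5 from 26.9 to 12.9 FPKM, and 17 lay between. Pcna, the sliding clamp, had 116.6 and 136.3 FPKM. With equal FPKM sums 10 of these 19 fell.

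Most genes of somatic cells and matrix had a change below 0. Over 5 lists 11 of 55 genes (20%) fell, 2 rose, and 43 had a change below 0, with a median of -0.59. Of all 12566 members, 26.6% rose, 4.45% fell and 5527 had a change below 0, with a median of 0.15. These pooled counts are for the deposited scale. Among 18 Sertoli genes, all of which changed downward, Kitl, the ligand of the spermatogonial receptor Kit, fell from 15.7 to 7.18 FPKM, and Clu, an abundant secreted chaperone, had 609.04 and 419.6. With equal FPKM sums 9 of the 18 Sertoli genes fell. Of 12 genes for collagens, laminins and other matrix proteins 7 fell, among them Col3a1, with 196.4, 113.3, 34.99 and 18.1 FPKM, and all 12 fell at equal FPKM sums. Of 8 imprinted growth genes 2 fell, H19 from 12.5 to 3.29 and Peg3 from 17.6 to 6.79 FPKM, and 7 of the 8 fell at equal FPKM sums.

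Leydig and muscle genes did not share one direction. Insl3, a hormone of Leydig cells, rose from 15.3 to 50.9 FPKM (ratio 2.72 to 4.11) and stood at 272.8 in adult testis. Hsd17b3, the enzyme that makes testosterone in adult Leydig cells, fell from 6.10 to 2.27 FPKM (ratio 0.267 to 0.514) and stood at 29.7 in the adult. The other 8 Leydig genes lay between. The median was 0.42 over the 10 members as deposited and -0.28 over the 11 members at equal FPKM sums. Of 7 peritubular myoid genes 5 lay between, such as Acta2, smooth muscle actin, with 95.1 and 47.3 FPKM. Tagln fell from 33.5 to 15.01 FPKM, and Actg2, the smooth muscle gamma actin, rose from 5.78 to 46.5. With equal sums 1 of the 7 rose and 5 fell. Of 8 genes for endothelial cells, macrophages and blood 1 fell, the vascular receptor gene Kdr, from 3.90 to 1.43 FPKM, and with equal sums 3 of 7 fell. Of 11 genes for cholesterol synthesis 3 (27.3%) rose, a share near the 26.6% of all members, and 1 rose at equal sums. Fdft1, squalene synthase, had 17.9 and 130.2 FPKM.

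A larger share of X-linked than of autosomal genes fell. Among members with at least 2 FPKM at d16, 110 of 425 X-linked genes (25.9%) fell and 14 (3.29%) rose, whereas 444 of 10438 autosomal genes (4.25%) fell and 1948 (18.7%) rose. The median change was -0.75 on the X and 0.02 on the autosomes, and 380 of the 425 X-linked genes changed downward. At equal FPKM sums 307 of 455 X-linked genes (67.5%) fell, against 2651 of 11004 autosomal ones (24.1%), and the medians were -1.22 and -0.53. X-linked genes below the limit at d16 were a group of their own. They had to reach 2 FPKM at d24 to be members and so could not fall. There were 120 of them, with medians of 0, 0, 6.996 and 17.6 FPKM in the 4 libraries, and 115 rose. Of the 129 X-linked genes that rose in all, 45 (34.9%) have a near-identical copy of another gene, against 80 of 3178 autosomal ones (2.52%), and for these the split of fragments is uncertain. On the Y chromosome 15 of 25 members rose, all from under 2 FPKM at d16, so that they could not fall. The other 10 all changed downward, with a median of -0.92, and 3 of them fell. Of the 25 Y-linked members, 17 have near-identical copies.

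The ribosomal proteins showed the same division by chromosome. Of 79 genes, 4 are X-linked and all 4 fell. Rpl36a had 765.7, 449.1, 147.4 and 122.9 FPKM. Rpl39 fell from 285.1 to 134.7 FPKM, Rpl10 from 92.1 to 39.4 and Rps4x from 91.1 to 33.6. Of the 75 others none fell and 2 rose, with a median of -0.15 over the 75. The 2 were Rps27, with 454.8, 143.8, 634.5 and 928.4 FPKM, and Rpl30, which went from 31.97 to 66.9 FPKM. Rps27 was thus lowest in the d16 library. The autosomal copies Rpl10l and Rpl39l, which are expressed in male germ cells, rose in the same step, from 158.4 to 329.3 and from 31.3 to 107.4 FPKM. At equal FPKM sums 20 of the 79 (25.3%) fell, against 23.3% of all members. They were the 4 X-linked genes and 16 of the 75 others, so that the absence of falls among the others holds for the deposited scale only. Likewise, in the lists for the chromosome axis, recombination, meiotic division, spermatid regulation and piRNA, all 3 X-linked members (Ccnb3, Taf7l and Tex11) fell, against 1 of 84 on other chromosomes (Mnd1), where 34 rose. At equal FPKM sums the 3 X-linked genes fell, and so did 16 of 85 on other chromosomes, where 21 rose.

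**Figure D5:**
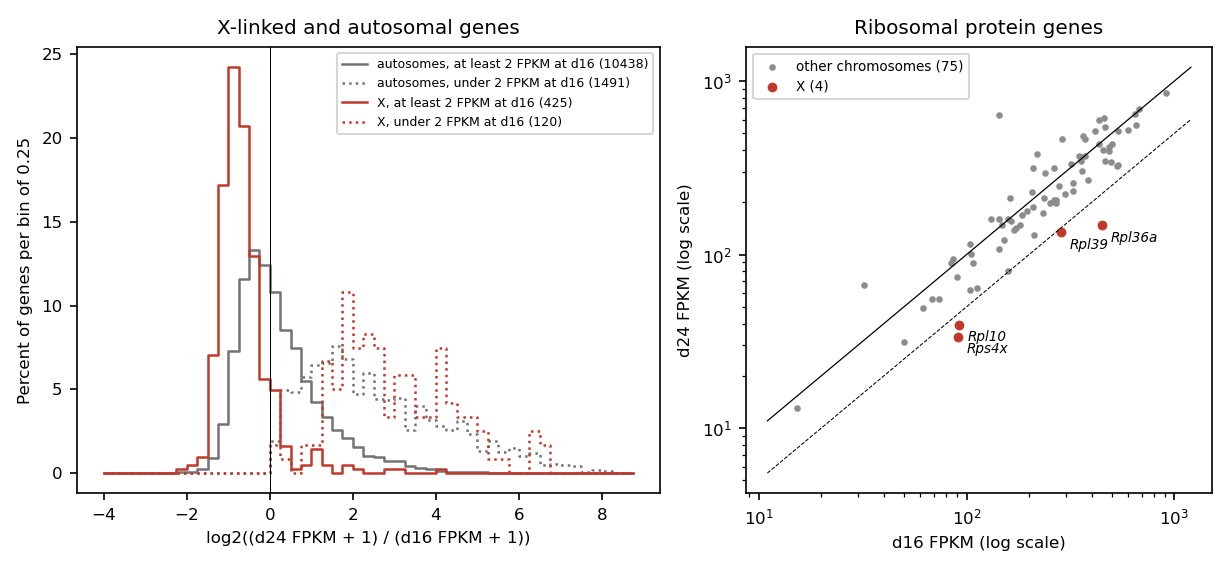
Left, percent of genes per bin of 0.25 in log2((d24 FPKM + 1)/(d16 FPKM + 1)), for X-linked (red) and autosomal (grey) genes with at least 2 FPKM at d16 (solid) and under 2 FPKM at d16 (dotted). Right, FPKM at d24 against d16 on log scales for 79 ribosomal protein genes, with the line of equal values and, dashed, that of a 2-fold fall, below which lie the 4 X-linked genes.

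The kinds of genes that rose differed from the members at large. Of 586 genes annotated as long non-coding RNA 367 (62.6%) rose, against 2889 of 11724 coding genes (24.6%). Of 932 members known only by a RIKEN clone name 588 (63.1%) rose, against 2587 of 11303 members with an ordinary name (22.9%). Many of these genes became members only by their level at d24 and could not fall, among them 297 of the 586 long non-coding RNAs and 430 of the 932 RIKEN genes, against 1279 of the 11724 coding genes. Among those with at least 2 FPKM at d16, 106 of 289 long non-coding RNAs (36.7%), 184 of 502 RIKEN genes (36.7%) and 1834 of 10445 coding genes (17.6%) rose. Coding genes with 1 exon numbered 372, of which 187 (50.3%) rose and 40 (10.8%) fell, and those with 2 or more exons 11352, of which 2702 (23.8%) rose and 458 (4.03%) fell. Of the 372, 125 were under 2 FPKM at d16 and could not fall, against 1154 of the 11352. Among the 247 genes with 1 exon and at least 2 FPKM at d16, 70 (28.3%) rose and 40 fell. The transcripts of risen coding genes had a median length of 2214 bases, those between 2999 and those of fallen genes 2616. By shared name stem, a grouping made after the values were seen, 23 of 27 Spata, 20 of 26 Adam, 15 of 21 Prss and 70 of 133 Ccdc genes rose, while 27 of 58 Hist and 11 of 25 Col genes fell. Of the Spata, Adam, Prss and Ccdc members, 15, 11, 12 and 25 were under 2 FPKM at d16 and could not fall. Of the 58 Hist genes 28 have near-identical copies. The counts by stem are for the deposited scale, on which 26.6% of all members rose and 4.45% fell.

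Some of the falls were of short non-coding RNAs and histones. Of 26 small nucleolar RNAs none rose and 15 (57.7%) fell, against 4.45% of all members. This count is for the deposited scale. Some of these short RNAs rest on few fragments, such as Snora21 with 13 at d16 and 4 at d24. Rmrp, the RNA of RNase MRP, had 3251, 1831, 422.9 and 502.4 FPKM, and Rpph1, the RNA of RNase P, had 4397, 3188, 1031 and 713.9. Terc, the telomerase RNA, fell from 7.05 FPKM (35 fragments) to 0.688 (6 fragments). Hist1h1a, a linker histone of dividing germ cells, fell from 650.7 to 266.4 FPKM, and Hist1h2aa from 2249 to 998.6. H2-Q10, a class I histocompatibility gene, fell from 8.09 to 0.402 FPKM, and S100z from 4.53 FPKM (17 fragments) to no fragment. The 15 largest losses made up 20.7% of all FPKM lost, and besides these RNAs and histones they include Malat1, a long nuclear RNA, from 1486 to 738.2 FPKM and Ptma, prothymosin alpha, from 685.2 to 265.0. The cause of these falls was not tested.

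The largest fall was not shared by the neighbouring stages. Lars2, a mitochondrial leucyl-tRNA synthetase, had 175.05, 200.5, 17.4 and 206.2 FPKM. Srp54c, of the signal recognition particle, had 43.1, 35.2, 3.23 and 30.3 FPKM, and it has a near-identical copy. Angptl7 had 14.8, 14.3, 3.13 and 19.3 FPKM. In all, 8 genes were at least 2-fold lower at d24 than in each of the other 3 libraries, and 4 genes were at least 2-fold higher. Each of the 4 has a near-identical copy, among which fragments may be split. Of the 8, Snora21, Snord87 and Mir6236 rest on few fragments, with 13, 22 and 7 at d16 and 4, 12 and 3 at d24. The 8 include Hsd17b3, the Leydig enzyme above, and with 1 library a property of the stage and one of the library cannot be told apart.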

How the data were processed

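RNA from testis at d12, d16, d24 and adult age was sequenced with 1 library per stage. The 4 H3K27Ac ChIP-seq samples were not used here. The authors used TopHat2 2.1.0 on top of Bowtie 1.1.2 to align read pairs to the GRCm38 (mm10) genome. The deposited FPKM values per RefSeq gene were made by the authors with Cuffdiff (Cufflinks 2.2.1), which corrected for multi-reads and sequence bias, while its effective length correction was turned off. The scaling between libraries is not given in the sources used here, and it affects every change between stages.

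From these values log2((d24 + 1)/(d16 + 1)) was computed with a pseudocount of 1 FPKM for genes with at least 2 FPKM in either library, with pandas 2.3.3, scipy 1.17.1 and numpy 2.4.6 under python 3.11.15. Each FPKM value times transcript length was divided by what 1 fragment is worth in that library, which gave fragments for 9950 of the 12566 members. Of values up to 20 fragments, 91.5% at d16 and 91.5% at d24 lay within 0.05 of a whole number. Intervals are exact 95% Poisson intervals for levels and Clopper-Pearson intervals for ratios. Genes count as near-identical copies where blastn 2.17.0 aligned their transcripts with 95% identity or more across 80% or more of the length. Of the symbols, 22552 matched RefSeq, 1240 matched a synonym and 191 were not found. Recovery and calls were tested on simulated data.

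Named genes are members of 27 lists by function (462 of 467 genes found) and of 24 pairs of relatives, with those of the highest FPKM as examples, the 15 largest rises and falls, the 15 largest gains and losses in FPKM, and the genes nearest to the limit. The members and lists were chosen with earlier results of these data known. Promoter motifs were counted on both strands of RefSeq promoter sequences.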

Additional observations from a re-analysis of the deposited data

How the results depend on the processing

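No paired analysis was possible because each stage has 1 library. With a pseudocount of 0.1 FPKM 1020 genes fell. With a limit of 5 FPKM the median change of the members was 0.26, and with no limit it was 0 over 23983 genes. With FPKM sums set to 1000000 in both libraries, 4173 genes fell and the median was -0.49. With the same FPKM sum at the mean of both libraries, chosen after the data were seen, 2979 fell and the median was -0.45. With the same upper quartile 1397 fell and the median was -0.13, and centred on the median of the members 1035 fell and the median was 0. Past 4-fold, 1598 genes rose and 10 fell. The direction of the median was therefore set by the scaling. With genes that have near-identical copies left out, 3208 rose and 512 fell, and with the interval of the ratio required to lie clear of 1, 2615 rose and 448 fell among 9950 genes. With 1 library per stage, leaving out a replicate was not possible. At 1 kb, 2 FPKM rests on 24.999 fragments at d16 and 43.9 at d24, which limits calls on low genes.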
